A study of Mus musculus with 10 samples.

Results

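The imprinted genes followed here across normal mouse liver and liver tumours have roles in growth and are H19, Igf2, Peg10, Sfmbt2, Phlda2, Dlk1, Meg3, Peg3, Mest and Plagl1. They were taken by symbol from a table of 16697 genes, and all 10 were found in it. The genes were chosen by their measured values in these same libraries, so their levels and differences are given as a description and none of them was tested. RNA sequencing had been performed on 10 libraries in 3 groups. Normal liver (NL, n = 4) is labelled as wild type. c-MYC tumours (c-MYC, n = 3) arose after c-MYC and the empty vector pT3 had been delivered to hepatocytes by hydrodynamic tail vein injection, a rapid injection of a large volume that drives plasmid DNA into the liver. c-MYC/FOXO1AAA tumours (c-MYC/FOXO1AAA, n = 3) received c-MYC with FOXO1AAA, a mutant of the transcription factor FOXO1 that AKT cannot inactivate. The tumour plasmids carried the EF1α promoter, and Sleeping Beauty transposase inserted them into the genome. The labels of the samples give the strain as C57BL/6, whereas the extraction protocol and the methods of the study name FVB or FVB/N. Age and sex were not given for the libraries. The methods of the study count as many mice or livers as there are libraries in each group, so each library was taken as a separate animal.

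An imprinted gene is transcribed mainly from 1 of the 2 parental alleles, for some genes only in certain tissues. In many cases DNA methylation set in the egg or sperm marks 1 allele at a control region. Many imprinted genes act on fetal and placental growth, and several of them are abundant in fetal liver and are silenced after birth. The genes lie in clusters in which a shared control region, often with a long noncoding RNA, sets the allele that each neighbour uses. Igf2, Peg10, Sfmbt2, Dlk1, Peg3, Mest and Plagl1 are transcribed from the paternal allele, and H19, Phlda2 and Meg3 from the maternal allele. The libraries do not separate the alleles, and neither imprinting nor methylation was measured.

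H19, a noncoding RNA, and Igf2, which encodes the fetal growth factor IGF2, lie beside each other on the minus strand of chromosome 7 (GRCm38, GENCODE release M21, H19 at chr7:142575529-142578143 and Igf2 at chr7:142650766-142666816). Phlda2 (chr7:143501545-143503150), which encodes a small protein that restrains placental growth, lies farther along the same region in a domain controlled by Kcnq1ot1. Dlk1, a membrane protein of the Notch ligand family (chr12:109452823-109463336), and the noncoding RNA Meg3 (chr12:109541001-109571726) share a cluster on chromosome 12. Peg10, a gene derived from a retrotransposon that is required for the placenta, was at chr6:4747306-4760517, and Mest, which encodes a protein of the α/β hydrolase fold, at chr6:30723547-30748465. Peg3, a zinc finger protein, was at chr7:6703892-6730431. Sfmbt2, a Polycomb group protein, was at chr2:10370510-10595253, and Plagl1, a zinc finger transcription factor, at chr10:13060504-13131694.

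H19, Igf2, Mest and Meg3 are also host genes of microRNAs, of which H19 is the best known, as the precursor of miR-675. The mature sequences inside H19, Igf2 and Mest are shown because these hosts had the highest tumour levels, and only the host transcripts were measured. Capitals mark the seed, bases 2 to 8, which pairs with target RNAs. The sequences are from RefSeq (GRCm38.p6).
mmu-miR-675-5p: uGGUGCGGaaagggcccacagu
mmu-miR-675-3p: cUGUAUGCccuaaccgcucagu
mmu-miR-483-5p: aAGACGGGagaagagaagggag
mmu-miR-483-3p: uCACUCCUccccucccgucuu
mmu-miR-335-5p: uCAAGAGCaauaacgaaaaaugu
mmu-miR-335-3p: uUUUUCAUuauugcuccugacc
The hairpin of miR-675 lies in an exon of H19, that of miR-483 in an intron of Igf2 and that of miR-335 in an intron of Mest. With Meg3 included, 9 mature sequences lay inside these 4 hosts and had 9 distinct seeds, so no seed was shared among them. Sfmbt2 also spans 119 annotated microRNA genes, whose seeds were not compared. No level of a mature microRNA was measured here.

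RefSeq promoter windows, from 250 bases before to 50 bases after a start site, were given for 8 of the 10 genes, in 15 windows. The motifs searched on both strands were GTAAACA, the forkhead site that FOXO proteins bind, CACGTG, the E-box that MYC binds, and GGGGCCCC, a site described for Plagl1. The latter pair read the same on both strands, and no searched motif overlapped another in these windows. Each motif was found in 1 of the 15 windows, against 3.65%, 7.15% and 1.08% of 32851 windows of all genes. Dlk1 held GTAAACA at 2 positions, both on the other strand, as TGTTTAC. Plagl1 held CACGTG and Peg3 held GGGGCCCC, each at 1 position. The 250 bases before these starts are shown because the groups differ by c-MYC and FOXO1AAA. The capitals mark the matches.
Dlk1 (chr12:109452573-109452822, plus strand): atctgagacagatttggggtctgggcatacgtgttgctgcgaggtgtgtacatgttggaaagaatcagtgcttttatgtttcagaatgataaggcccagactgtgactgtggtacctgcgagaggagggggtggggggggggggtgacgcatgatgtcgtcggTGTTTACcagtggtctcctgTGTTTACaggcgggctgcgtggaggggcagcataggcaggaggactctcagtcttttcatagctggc
Plagl1 (chr10:13090582-13090831, plus strand): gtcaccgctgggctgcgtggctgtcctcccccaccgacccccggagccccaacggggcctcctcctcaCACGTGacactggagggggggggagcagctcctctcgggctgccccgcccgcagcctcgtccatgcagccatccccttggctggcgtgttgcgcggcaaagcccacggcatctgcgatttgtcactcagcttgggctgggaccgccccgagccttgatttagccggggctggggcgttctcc
Peg3 (chr7:6730420-6730669, minus strand): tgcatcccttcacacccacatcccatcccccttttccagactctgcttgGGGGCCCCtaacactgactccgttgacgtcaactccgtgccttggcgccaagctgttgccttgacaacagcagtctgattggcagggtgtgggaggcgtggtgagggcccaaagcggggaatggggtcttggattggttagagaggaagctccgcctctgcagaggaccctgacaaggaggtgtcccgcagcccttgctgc
A match says only that the letters are present. CG dinucleotides, at which imprints are methylated, numbered 1 to 26 in the 15 windows with a median of 13, and the median over all windows was 7.

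The table held log2 FPKM, fragments per kilobase of gene and scaled to an effective library size, and it could be turned back into whole reads. Summed over listed genes, the libraries held 13.12 to 20.55 M reads (M, 1e6 reads). The 5 hepatocyte markers (Alb, Ttr, Apoa1, Ass1 and Cps1) summed to 74600 to 82400 FPKM in NL, to 3760 to 5560 FPKM in c-MYC and to 817 to 1480 FPKM in c-MYC/FOXO1AAA. The 5 skeletal muscle markers (Myod1, Myog, Myf5, Acta1 and Ckm) summed to 0.365 to 0.49 FPKM in NL, to 0.964 to 5.11 FPKM in c-MYC and to 120 to 176 FPKM in c-MYC/FOXO1AAA, and Myod1, Myog and Myf5 had no read in any NL or c-MYC library. The c-MYC/FOXO1AAA libraries also had the highest sums of the 7 fibroblast and stellate cell markers, 95.6 to 154 FPKM against 23.9 to 28.3 FPKM in NL and 12.2 to 35.3 FPKM in c-MYC. This sum rested on the collagen genes (Col3a1 at a mean of 59.2 FPKM against 5.95 FPKM in NL) and Pdgfrb, whereas the stellate cell marker Lrat stood at 0.278 FPKM against 3.85 FPKM in NL, and the c-MYC/FOXO1AAA values of Reln and Lum overlapped those of NL. Endothelial markers summed to 27.2 to 41.4 FPKM and lymphocyte markers to 8.9 to 13.2 FPKM in c-MYC/FOXO1AAA, also the highest of the groups (22.3 to 25.9 FPKM and 1.88 to 3.87 FPKM in NL). Macrophage markers summed to 172 to 301 FPKM in NL, 42.9 to 54.6 FPKM in c-MYC and 39.6 to 65.3 FPKM in c-MYC/FOXO1AAA. These tissues are mixtures, and fewer cells of a type cannot be told apart from less RNA per cell. The part of these markers in the results that follow was not tested.

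H19 was the most abundant gene of all in each c-MYC library. It stood at 16621, 16764 and 20337 FPKM in c-MYC 1 to 3, and it took 2.48% to 3.10% of the reads there. In the c-MYC/FOXO1AAA libraries it stood at 6651, 9096 and 8655 FPKM, with 1.18% to 1.56% of the reads, and it was still the first or second gene by FPKM. The 4 NL libraries held 1403, 88.4, 669 and 329 FPKM. All tumour libraries were above all NL libraries, and all c-MYC libraries were above all c-MYC/FOXO1AAA libraries. The c-MYC mean was 17907 FPKM ± 2105 (SD, n = 3), the c-MYC/FOXO1AAA mean 8134 FPKM ± 1303 (SD, n = 3) and the NL mean 622 FPKM ± 572 (SD, n = 4). These means put c-MYC at 28.8-fold and c-MYC/FOXO1AAA at 13.1-fold of NL, or at 49.5-fold and 22.5-fold when NL 1 was left out. The log2 difference of c-MYC/FOXO1AAA from c-MYC was -1.15, but it was -0.20 when all libraries were scaled to the same FPKM total.

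Igf2 was far less abundant than H19 and was distributed in the same way. It stood at 406, 639 and 395 FPKM in c-MYC and at 284, 294 and 280 FPKM in c-MYC/FOXO1AAA. The NL libraries held 28.3, 1.49, 11.4 and 5.32 FPKM, from 8 to 202 reads. The groups did not overlap, and the 3 c-MYC/FOXO1AAA libraries lay close together. The means were 480 FPKM ± 138 (SD, n = 3) for c-MYC, 286 FPKM ± 6.92 (SD, n = 3) for c-MYC/FOXO1AAA and 11.6 FPKM ± 11.8 (SD, n = 4) for NL. Igf2os, the transcript antisense to Igf2, stood at 3.16 to 3.52 FPKM in c-MYC, at 2.51 to 2.75 FPKM in c-MYC/FOXO1AAA and at 0.0248 to 0.176 FPKM in NL. Strandedness of the counting is not given in the sources used here, so reads of Igf2 and Igf2os cannot be fully told apart. The number of H19 reads per Igf2 read, which no scaling between libraries can change, was 90.4 to 123 in NL, 47.6 to 93.3 in c-MYC and 42.5 to 56.2 in c-MYC/FOXO1AAA. The NL and c-MYC ranges of this ratio overlapped, as did those of c-MYC and c-MYC/FOXO1AAA.

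**Figure D1:**
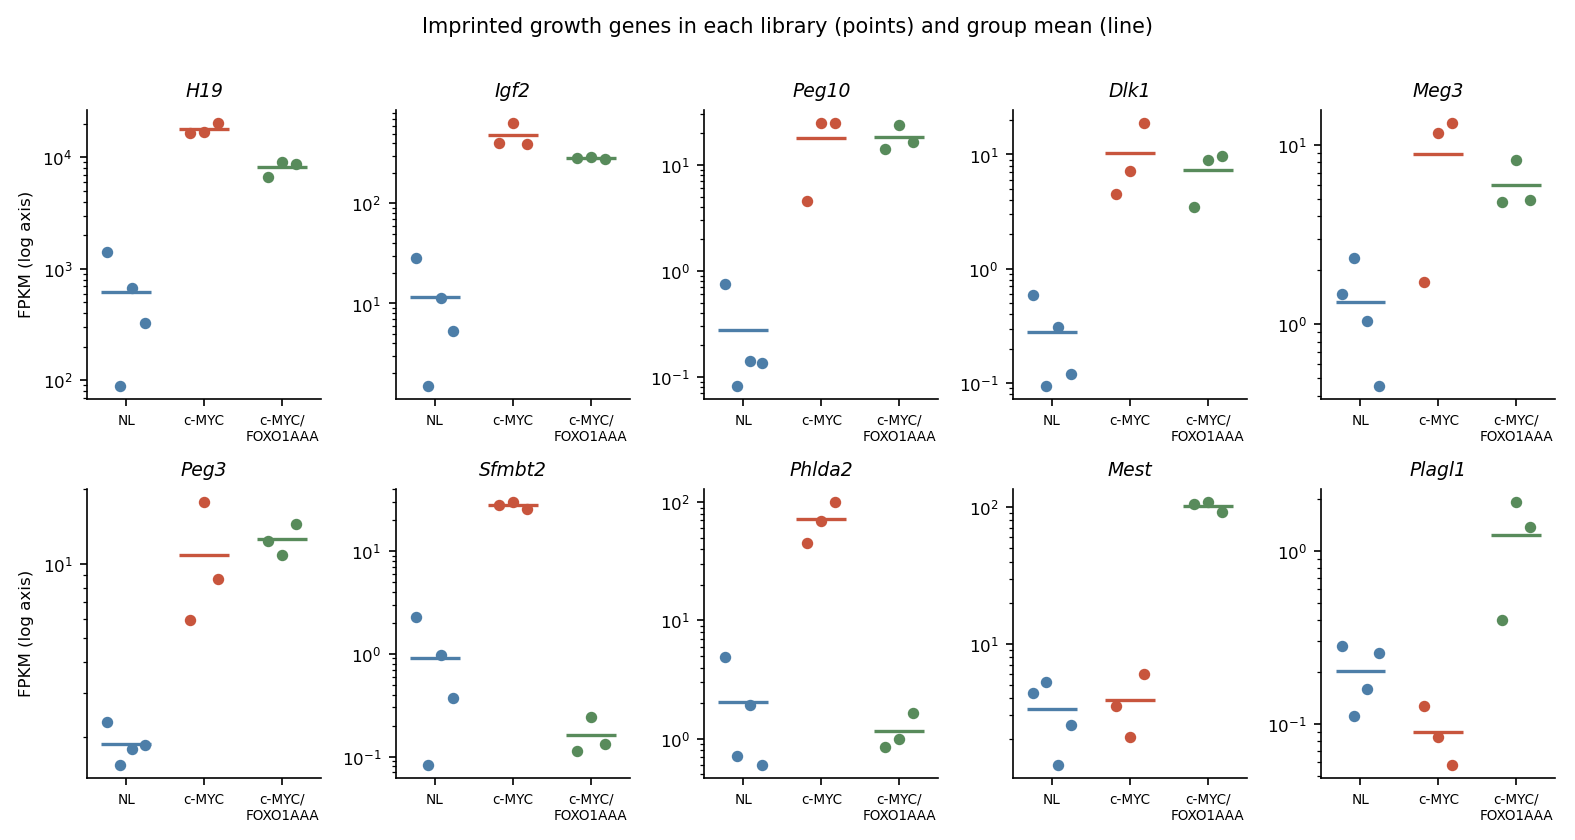
FPKM on a log axis for each of the 10 imprinted genes, with a point for each library and a line at the group mean, for NL (n = 4), c-MYC (n = 3) and c-MYC/FOXO1AAA (n = 3). H19 and Igf2 are high in both tumour groups, Sfmbt2 and Phlda2 are high in c-MYC alone, and Mest reaches 92.3 to 109 FPKM in c-MYC/FOXO1AAA alone.

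Levels of different genes depend on the gene length by which the authors divided. The length that fits the table was 1178 bp for H19, 650 bp for Igf2, 1498 bp for Meg3 and 487 bp for Mest, each the length of a single annotated transcript. For Mest that transcript retains an intron, and the longest Mest transcript has 2665 bp. For Igf2 the longest has 4722 bp and for Meg3 14548 bp. When reads were divided by all annotated exonic bases of the gene instead, c-MYC tumours held 8575 FPKM of H19, 54.5 FPKM of Igf2 and 0.729 FPKM of Meg3, and c-MYC/FOXO1AAA tumours held 12.6 FPKM of Mest. Comparisons of 1 gene between libraries do not depend on the length.

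Peg10, Dlk1 and Peg3 were also higher, and Meg3 was higher on average, in both tumour groups than in NL. Peg10 stood at 4.57, 24.7 and 24.9 FPKM in c-MYC, at 14.1, 23.99 and 16.5 FPKM in c-MYC/FOXO1AAA, and at 0.751, 0.0814, 0.141 and 0.135 FPKM in NL. The tumour groups overlapped, and c-MYC 1 was the lowest tumour library. The mean of c-MYC was 18.04 FPKM ± 11.7 (SD, n = 3) and that of c-MYC/FOXO1AAA was 18.2 FPKM ± 5.18 (SD, n = 3), 65.1-fold and 65.6-fold of NL, or 152-fold and 153-fold without NL 1. NL 2, NL 3 and NL 4 held only 4 to 8 Peg10 reads, so those folds carry a large counting error. The log2 difference between the tumour groups was 0.33 and turned to -0.48 without c-MYC 1.

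Dlk1 stood at 4.55, 7.20 and 18.9 FPKM in c-MYC and at 3.49, 8.91 and 9.702 FPKM in c-MYC/FOXO1AAA. The NL libraries held 0.590, 0.0938, 0.312 and 0.121 FPKM, from 3 to 29 reads. Each tumour library was above each NL library, and the tumour groups overlapped. Meg3, farther along the Dlk1 cluster, stood at 1.72, 11.7 and 13.3 FPKM in c-MYC, at 4.82, 8.21 and 4.95 FPKM in c-MYC/FOXO1AAA, and at 1.47, 2.35, 1.04 and 0.451 FPKM in NL. The c-MYC group overlapped NL because c-MYC 1 lay below NL 2, and the c-MYC/FOXO1AAA group did not. Without c-MYC 1 the log2 difference of c-MYC from NL was 3.47 in place of 2.51.

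Peg3 had the smallest relative spread of the 10, and so the steadiest level in normal liver. It stood at 2.30, 1.54, 1.78 and 1.86 FPKM in NL, at 5.90, 17.8 and 8.70 FPKM in c-MYC and at 12.3, 10.8 and 14.5 FPKM in c-MYC/FOXO1AAA. Both tumour groups were above NL, with means 5.76-fold and 6.70-fold of it, and they overlapped each other. The log2 difference between them was 0.36, within the pooled SD of 0.59.

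Sfmbt2 and Phlda2 were high in c-MYC tumours and low in c-MYC/FOXO1AAA tumours, where their values overlapped those of normal liver. Sfmbt2 stood at 27.9, 30.2 and 25.4 FPKM in c-MYC, from 3669 to 4473 reads. Values of 0.113, 0.245 and 0.132 FPKM were found in c-MYC/FOXO1AAA, from 18 to 54 reads, and the NL libraries held 2.26, 0.0824, 0.965 and 0.369 FPKM. The c-MYC/FOXO1AAA values were all within the range of NL. The mean of c-MYC was 171-fold that of c-MYC/FOXO1AAA and 30.3-fold that of NL. This ratio to NL was 58.9-fold when NL 1 was left out. Relative to H19 in the same library, there were 8.34 to 12.0 Sfmbt2 reads per 1000 H19 reads in c-MYC, 5.10 to 10.7 in NL and 0.0900 to 0.169 in c-MYC/FOXO1AAA.

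Phlda2 stood at 45.1, 68.7 and 101 FPKM in c-MYC and at 0.853, 0.997 and 1.64 FPKM in c-MYC/FOXO1AAA. The NL libraries held 4.94, 0.717, 1.92 and 0.598 FPKM. Again c-MYC stood apart and the other groups overlapped. The mean of c-MYC was 61.5-fold that of c-MYC/FOXO1AAA. The c-MYC/FOXO1AAA group differed from NL by -0.35 on the log2 scale, which turned to 0.75 when libraries were scaled to the same FPKM total and to 0.25 without NL 1. H19 and Igf2, in the same stretch of chromosome 7, stayed high in the tumours in which Phlda2 was low.

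Mest and Plagl1 showed the opposite pattern. Mest stood at 106, 109 and 92.3 FPKM in c-MYC/FOXO1AAA, from 879 to 1589 reads. The c-MYC libraries held 3.49, 2.10 and 6.06 FPKM and the NL libraries 4.33, 5.25, 1.29 and 2.53 FPKM, from 5 to 52 reads. The latter 2 groups overlapped, and the sign of their small log2 difference of 0.27 turned when NL 3 or c-MYC 3 was left out. The mean of c-MYC/FOXO1AAA was 26.4-fold that of c-MYC and 30.6-fold that of NL. Copg2, which overlaps Mest on the opposite strand, stood at 8.63 to 9.14 FPKM in c-MYC/FOXO1AAA and at 6.01 to 7.46 FPKM in c-MYC. Its log2 fold change between them was 0.36 (SE 0.13) and was not called (limma treat, adjusted p 1).

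Plagl1 was low everywhere and did not pass the filter used for the tests, which asks for 1 FPKM or more in 3 or more libraries. It stood at 0.400, 1.93 and 1.37 FPKM in c-MYC/FOXO1AAA, from 36 to 224 reads. The c-MYC libraries held 0.127, 0.0838 and 0.0576 FPKM, from 2 to 7 reads, and the NL libraries 0.282, 0.111, 0.160 and 0.256 FPKM, from 3 to 11 reads. All c-MYC/FOXO1AAA libraries were above all others, although c-MYC/FOXO1AAA 1 was well below the other two. The pair of genes that stood out in c-MYC/FOXO1AAA thus shared that group with the highest sums of the skeletal muscle, fibroblast, endothelial and lymphocyte markers given above.

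The comparisons share groups and are therefore set side by side rather than compared with each other. In c-MYC versus NL, 7 of the 10 genes were higher without overlap between the groups, none was lower and 3 overlapped, where 35.9% of all 16697 genes were higher and 32.7% lower in this way. In c-MYC/FOXO1AAA versus c-MYC, 2 were higher, 4 were lower and 4 overlapped (33.5% higher and 28.2% lower among all genes). In c-MYC/FOXO1AAA versus NL, 8 were higher, none was lower and 2 overlapped (43.1% higher and 33.2% lower among all genes). The median log2 difference of the 10 genes was 5.39, -0.25 and 3.53 in these comparisons, and that of all 14017 tested genes was 0.08, 0.03 and 0.21. Nothing is read from these shares, since the genes were selected on the values that they count. The sign of the difference depended on the scaling for Meg3 between the tumour groups and for Phlda2 in c-MYC/FOXO1AAA versus NL.

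**Figure D2:**
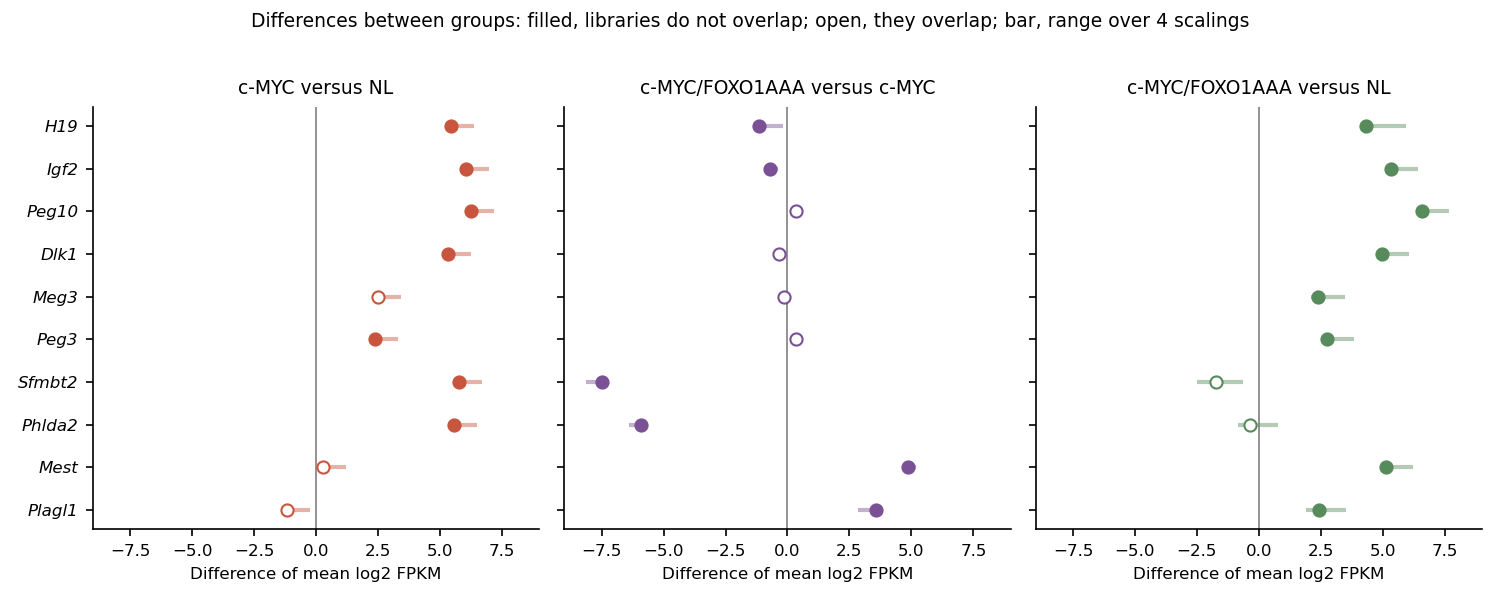
Difference of mean log2 FPKM for each of the 10 genes in the 3 comparisons, named group minus the second group. Filled points mark groups whose libraries do not overlap, open points those that do, and bars the range over 4 scalings of the libraries. Sfmbt2 (-7.50) and Phlda2 (-5.92) lie far to the left and Mest (4.85) and Plagl1 (3.59) to the right in c-MYC/FOXO1AAA versus c-MYC.

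The levels of the tumour genes in normal liver varied together. H19, Igf2, Peg10, Sfmbt2 and Dlk1 all had the order NL 1, NL 3, NL 4, NL 2 from high to low, an order shown by 11.0% of the tested genes. Some of its steps rest on few reads. NL 3 and NL 4 held 8 and 7 Peg10 reads, and NL 4 and NL 2 held 4 and 3 Dlk1 reads. H19 stood at 7.84%, 0.494%, 3.73% and 1.84% of its c-MYC mean in NL 1 to 4. Sfmbt2 stood at 8.11%, 0.296%, 3.47% and 1.33%, and Igf2 at 5.90%, 0.310%, 2.37% and 1.11%. A set of 200 other genes with the largest c-MYC versus NL differences and a c-MYC mean of at least 10 FPKM, chosen after the values had been seen, stood at medians of 9.38%, 1.55%, 4.73% and 2.98% in the same libraries. Of these 200 genes, 127 had that order. Afp, the fetal serum protein α-fetoprotein, followed at 8.06%, 0.527%, 3.66% and 1.75%.

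Phlda2 differed from that order only in NL 2 and NL 4, which held 4 and 3 of its reads. Meg3, Peg3, Mest and Plagl1 also did not share it. Meg3 and Mest were highest in NL 2, where H19 was lowest. Few reads set NL 2 apart, with 23 Mest reads against 22 in NL 1, and 32 Meg3 reads against 23. Among the 44 tested imprinted genes outside the 10, 2 had the order of H19 (4.55%). The amount of H19, Igf2 and Sfmbt2 in NL thus rests largely on NL 1. Without it the c-MYC mean was 79.2-fold that of NL for Igf2 (41.3-fold with it), 66.4-fold for Phlda2 (35.0-fold) and 58.2-fold for Dlk1 (36.6-fold), and the c-MYC/FOXO1AAA mean was 47.2-fold for Igf2 (24.6-fold) and 42-fold for Dlk1 (26.4-fold). With all NL libraries, the lowest c-MYC library was 11.8-fold above the highest NL library for H19. Where these transcripts came from in NL was not tested.

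**Figure D3:**
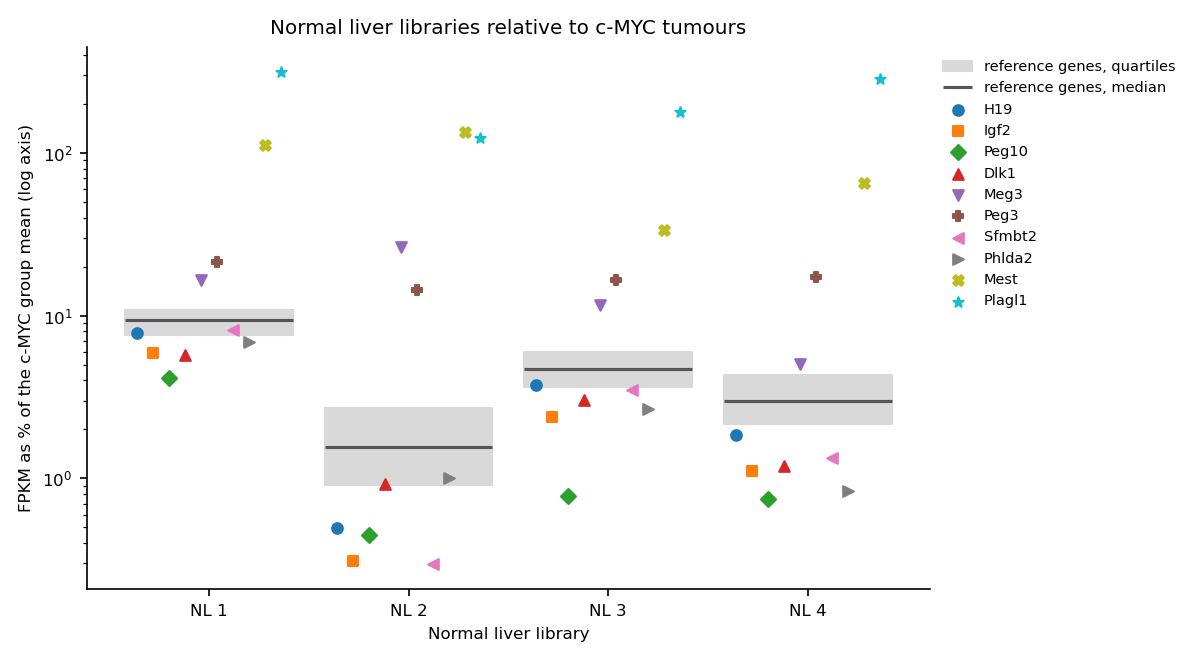
FPKM of the 10 genes in each NL library as a percent of the mean of the c-MYC group, on a log axis. The grey boxes and lines give the quartiles and the median of 200 reference genes, whose medians are 9.38%, 1.55%, 4.73% and 2.98% in NL 1 to 4. H19, Igf2, Peg10, Dlk1 and Sfmbt2 have the order of the reference medians, and Meg3 and Mest are highest in NL 2. For Peg10, Dlk1, Meg3 and Mest these positions rest on few reads.

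Among the c-MYC tumours, c-MYC 1 had low levels of several imprinted genes. Its Meg3 level was 13.8% and its Peg10 level 18.4% of the mean of c-MYC 2 and 3. Rian and Mirg, noncoding RNAs next to Meg3, stood at 11.7% and 13%, and Sgce, which shares a promoter region with Peg10, at 22.9%. Dlk1 stood at 34.8% and Peg3 at 44.7%. H19 (89.6%), Igf2 (78.6%) and Sfmbt2 (100%) were close to the other libraries. Over the 14017 tested genes the median was 99.1%, and 3.01% of them lay below 50%. These ratios were noticed in the values and were not tested.

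For each of the 10 genes, the 2 tested genes of most similar pattern were sought among 13668 genes, by the root mean square difference of log2 FPKM over the 10 libraries after each gene was centred on its mean. H19 was closest to Psat1 (0.121) and Phgdh (0.215), enzymes of serine synthesis. For Psat1 the means were 203 FPKM ± 18.1 (SD, n = 3) for c-MYC, 93.4 FPKM ± 4.31 (SD, n = 3) for c-MYC/FOXO1AAA and 6.43 FPKM ± 5.49 (SD, n = 4) for NL. Igf2 was closest to the mitotic genes Espl1 (0.279) and Ccnb1 (0.300), and Dlk1 to Ska1 (0.559) and Cdc20 (0.563). Peg10 was closest to Igf2bp1 (0.374), which encodes a fetal protein that binds Igf2 and H19 RNA, and then to Nuf2 (0.725).

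Sfmbt2 was closest to Cldn6 (0.426), a claudin of fetal epithelia, and to Hif3a (0.800). Phlda2 was closest to Bhlha15 (0.595) and Aqp3 (0.613), and Peg3 to Chpf (0.277) and Wdr75 (0.307). The nearest genes of Mest were Itga11 (0.319), an integrin of mesenchymal cells, and Orai2 (0.354). Plagl1 was nearest to Tmem119 (0.537) and Ltbp2 (0.556), and Meg3 had only distant neighbours, Gm35082 (0.682) and Ddias (0.694). Likeness over 10 libraries in 3 groups describes shared group levels, and the shared order of the NL libraries weighs in it for the genes that have it.

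The question of whether other imprinted genes were distributed like these 10 was addressed with 72 listed genes, of which 56 were measured and 44 passed the filter. In c-MYC versus NL, 6 of the 44 rose and 13 fell (13.6% and 29.5%), against 24.5% higher and 23.6% lower among all tested genes (limma treat above 1.5-fold, Benjamini-Hochberg adjusted over 14017 genes). In c-MYC/FOXO1AAA versus c-MYC, 15 rose and 5 fell (34.1% and 11.4%), against 15.9% and 12.7% of all genes. In c-MYC/FOXO1AAA versus NL, 21 rose and 12 fell (47.7% and 27.3%), against 31.2% and 26.6%. The median log2 fold changes of the 44 genes were -0.35, 0.34 and 0.59. Scaling to the same FPKM total, which moved the median of all genes to 1.01, 0.20 and 1.31, gave 17 higher and 8 lower, 18 and 5, and 29 and 7. The shares of all tested genes under that scaling were 50.4% higher and 13.5% lower, 18.5% and 10.6%, and 58% and 15%. Tspan32, Begain, Zim1, Asb4 and Ndn reached 1 FPKM in no NL or c-MYC library. They passed the filter only through c-MYC/FOXO1AAA, where they were high, so their calls as higher add no support. The same holds for Atp10a and Ppp1r9a, which reached 1 FPKM in fewer than 3 of the NL and c-MYC libraries. The 15 genes that rose between the tumour groups numbered 9 when c-MYC/FOXO1AAA 1 or c-MYC/FOXO1AAA 2 was left out. The filter was applied again to the remaining libraries, and Tspan32, Begain, Zim1, Asb4 and Ndn then no longer passed it.

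Around H19, Igf2 and Phlda2, the cell cycle inhibitor Cdkn1c rose in both tumour groups. It stood at 88.2, 152 and 120 FPKM in c-MYC and at 57.1, 109 and 61.1 FPKM in c-MYC/FOXO1AAA, against 2.20 to 8.02 FPKM in NL. Against NL it rose in c-MYC by a log2 value of 4.89 (SE 0.40, limma adjusted p 4.29e-06) and by 4.20 in c-MYC/FOXO1AAA (SE 0.40, limma adjusted p 9.80e-06). Cdkn1c was not called between the tumour groups, at -0.69 (SE 0.43, limma adjusted p 0.86).

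The organic cation transporter Slc22a18, between Cdkn1c and Phlda2 in this domain, fell in both steps. It stood at 205 to 253 FPKM in NL, at 29.8 to 39.1 FPKM in c-MYC and at 4.23 to 7.65 FPKM in c-MYC/FOXO1AAA, with log2 fold changes of -2.73 (SE 0.18) and -2.57 (SE 0.19) and limma adjusted p-values of 1.28e-06 and 7.77e-06. Osbpl5 stood at 1.31 to 2.21 FPKM in NL, fell to 0.0828 to 0.275 FPKM in c-MYC and rose to 8.60 to 11.6 FPKM in c-MYC/FOXO1AAA. Dhcr7, an enzyme of cholesterol synthesis at the edge of the region, fell between the tumour groups by 2.45 on the log2 scale (SE 0.18, limma adjusted p 9.13e-06). Tspan32 rose there by 2.501 (SE 0.28, limma adjusted p 0.000168), but it passed the filter only through c-MYC/FOXO1AAA. Cd81 stood at 167 to 194 FPKM in NL, 39.1 to 49.0 FPKM in c-MYC and 89.7 to 107 FPKM in c-MYC/FOXO1AAA. It fell in c-MYC versus NL and rose between the tumour groups. Its fall in c-MYC/FOXO1AAA versus NL turned to a log2 fold change of 0.27 under the same FPKM total. Nap1l4 and Tssc4 were called higher in c-MYC/FOXO1AAA versus NL only, with limma adjusted p-values of 0.0124 and 0.00598. The call of Nap1l4 was lost with libraries set to equal medians and with the replicate block (limma adjusted p up to 0.0641). Kcnq1 (0.0917 to 1.03 FPKM) and its antisense RNA Kcnq1ot1 (0.0204 to 0.130 FPKM) were below the filter.

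In the Dlk1 cluster, Rian rose in both tumour groups. It stood at 5.88, 53.0 and 47.4 FPKM in c-MYC, at 16.4, 21.6 and 17.5 FPKM in c-MYC/FOXO1AAA and at 0.335 to 2.68 FPKM in NL. The log2 fold changes from NL were 4.31 and 3.89 (SE 0.83 each, limma adjusted p 0.00197 and 0.00317). There were 1.6 to 2.09 Rian reads per Meg3 read in c-MYC, 1.21 to 1.64 in c-MYC/FOXO1AAA and 0.200 to 0.929 in NL. The NL ratios rest on only 1 to 19 Rian reads and 5 to 32 Meg3 reads per library, so their counting error is large. Dlk1 reads per Meg3 read varied far more, from 1.92 to 8.58 in c-MYC and from 2.27 to 6.17 in c-MYC/FOXO1AAA. Begain had no read in any NL or c-MYC library and 132 to 224 reads in c-MYC/FOXO1AAA, at least 46.5-fold higher than c-MYC (against 3 reads per library; the bound covers counting error only). Mirg (0.0762 to 0.953 FPKM), Rtl1 (0.0186 to 0.224 FPKM) and Dio3 (0.0583 to 0.412 FPKM) were below the filter.

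Next to Peg10, Sgce rose in c-MYC/FOXO1AAA versus NL by 1.82 on the log2 scale (SE 0.45, limma adjusted p 0.018) and was not called in c-MYC versus NL, at 1.05 (SE 0.45, limma adjusted p 0.279). Ppp1r9a rose in c-MYC/FOXO1AAA versus NL by 2.46 (SE 0.29, limma adjusted p 9.91e-05), but it passed the filter only through c-MYC/FOXO1AAA. The paraoxonase genes Pon2 and Pon3, which are liver genes of this cluster, both fell in c-MYC versus NL. Pon2 fell by 4.01 on the log2 scale (SE 0.24, limma adjusted p 2.96e-07) and Pon3 fell by 5.81 (SE 0.23, limma adjusted p 1.34e-08). Tfpi2 fell from 29.5 to 37.2 FPKM in NL to 4.53 to 13.5 FPKM in c-MYC and 0.608 to 2.71 FPKM in c-MYC/FOXO1AAA. Its fall in c-MYC versus NL (log2 fold change -2.09, limma adjusted p 0.0121) was not called under the same FPKM total or without c-MYC 1, where the values were -1.17 and -1.70 (limma adjusted p up to 0.181). Asb4 stood at 14.0, 15.6 and 24.95 FPKM in c-MYC/FOXO1AAA, against at most 2 reads in each c-MYC library and 3 to 7 reads in each NL library. Casd1 was not called in any comparison (4.53 to 12.1 FPKM), and Calcr was below the filter (0.0544 to 0.572 FPKM).

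In the Peg3 cluster, Zim1 had no read in NL, at most 4 reads in a c-MYC library and 212 to 295 reads in c-MYC/FOXO1AAA, at least 34.6-fold higher than NL. Usp29, which starts beside Peg3, stood at 0.614 to 0.915 FPKM in c-MYC/FOXO1AAA, at least 11.4-fold higher than NL, where it had no read. It was below the filter and was not tested. Peg3 itself did not separate the tumour groups, as given above.

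**Figure D4:**
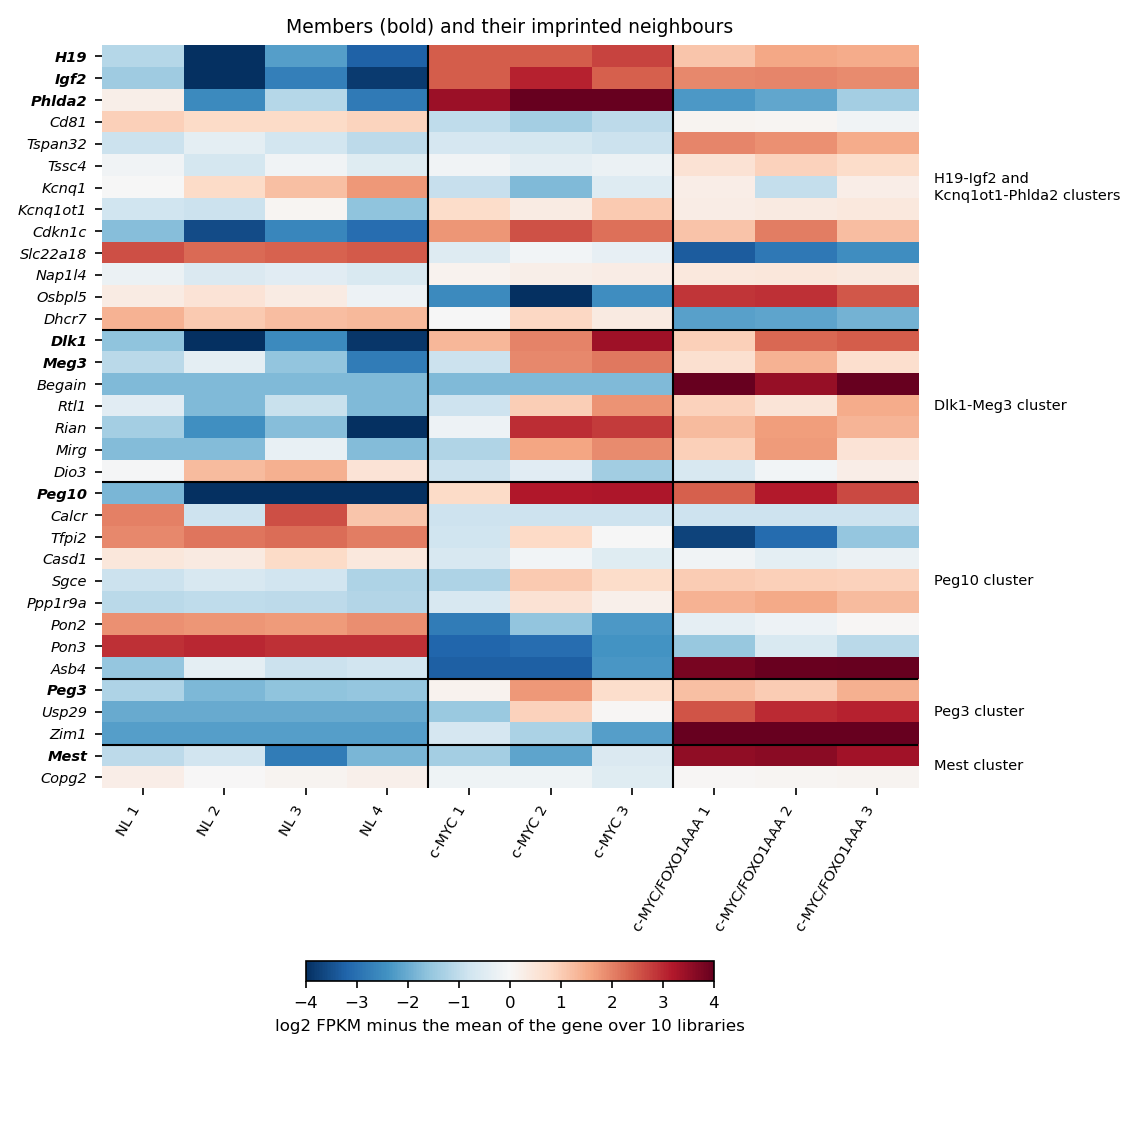
Log2 FPKM of the 8 genes with measured imprinted neighbours (bold) and of these neighbours, centred on the mean of each gene over the 10 libraries, with rows grouped by cluster and columns by library. Colours stop at 4 in either direction. Genes of 1 cluster differ in pattern, as with Cdkn1c, high in both tumour groups, beside Slc22a18, highest in NL.

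Elsewhere in the genome, the largest increases in c-MYC/FOXO1AAA versus c-MYC among imprinted genes were those of Ndn, Dcn and Atp10a. Ndn, a growth suppressor of the Prader-Willi region, stood at 14.9, 17.8 and 9.24 FPKM in c-MYC/FOXO1AAA and at 0.0321 to 0.150 FPKM in c-MYC. It rose by 7.34 on the log2 scale (SE 0.56, limma adjusted p 2.97e-06), but it passed the filter only through c-MYC/FOXO1AAA. Atp10a, with means of 12.4 FPKM in c-MYC/FOXO1AAA, 0.408 FPKM in c-MYC and 0.820 FPKM in NL, also passed it only through c-MYC/FOXO1AAA. Dcn, which encodes the matrix proteoglycan decorin of fibroblasts, stood at 178 to 312 FPKM in c-MYC/FOXO1AAA, 1.76 to 7.99 FPKM in c-MYC and 62.0 to 83.1 FPKM in NL. Grb10, an adaptor that restrains insulin and IGF receptor signalling, stood at 18.2, 77.1 and 20.03 FPKM in c-MYC/FOXO1AAA and at 0.739 to 1.30 FPKM in NL, and rose by 5.14 on the log2 scale (SE 0.49, limma adjusted p 8.05e-06). Gatm rose from 6.18 to 6.65 FPKM in NL to 126 to 190 FPKM in c-MYC/FOXO1AAA. The muscle, fibroblast, endothelial and lymphocyte marker sums were also highest in this group, and their part in these increases was not tested.

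Igf2r, the receptor that takes up IGF2 and removes it, rose in c-MYC versus NL by 2.32 on the log2 scale (SE 0.19, limma adjusted p 9.95e-06) and fell in c-MYC/FOXO1AAA versus c-MYC by 1.31 (SE 0.20, limma adjusted p 0.0107). Ago2 rose in c-MYC versus NL by 2.04 (SE 0.20, limma adjusted p 4.85e-05). The amino acid transporter gene Slc38a4 fell from 746 to 848 FPKM in NL to 49.8 to 85.8 FPKM in c-MYC and 52.6 to 62.6 FPKM in c-MYC/FOXO1AAA. Zrsr1 fell in both comparisons with NL, by 2.54 and 2.20 (SE 0.23 each, limma adjusted p 1.58e-05 and 4.62e-05). Ddc stood at 110, 148 and 123 FPKM in c-MYC and at 3.35, 3.16 and 15.97 FPKM in c-MYC/FOXO1AAA, and fell by 4.51 on the log2 scale (SE 0.53, limma adjusted p 0.000109).

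The partners of IGF2 in the insulin-like growth factor axis were also listed, 20 genes of which 17 were tested. In c-MYC versus NL, 3 rose and 7 fell, in c-MYC/FOXO1AAA versus c-MYC 5 rose and 6 fell, and in c-MYC/FOXO1AAA versus NL 5 rose and 5 fell, with median log2 fold changes of -0.63, -0.39 and 0.32. These are 17.6% and 41.2%, 29.4% and 35.3%, and 29.4% and 29.4% of the 17, where all tested genes had 24.5% and 23.6%, 15.9% and 12.7%, and 31.2% and 26.6%. Under the same FPKM total the counts were 6 and 5, 5 and 5, and 8 and 4, where all tested genes had 50.4% and 13.5%, 18.5% and 10.6%, and 58% and 15%. Igf1, the growth factor that adult liver secretes, fell in both tumour groups, with means of 612 FPKM ± 27.2 (SD, n = 4) for NL, 7.46 FPKM ± 0.96 (SD, n = 3) for c-MYC and 11.3 FPKM ± 2.40 (SD, n = 3) for c-MYC/FOXO1AAA. Igf2 was thus below Igf1 in every NL library and above it in every tumour library, on the FPKM scale with the lengths that the authors used. Igfals, which carries circulating IGF, fell by 5.81 in c-MYC versus NL (SE 0.15, limma adjusted p 7.38e-10).

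Igf1r, the receptor through which IGF2 signals, rose in c-MYC/FOXO1AAA versus c-MYC by 6.71 on the log2 scale (SE 0.42, limma adjusted p 7.39e-07). It stood at 15.8, 14.5 and 12.8 FPKM in c-MYC/FOXO1AAA and at 0.0709 to 0.288 FPKM in all other libraries. Igf1r thus passed the filter only through c-MYC/FOXO1AAA. Igf2bp1 stood at 1.601, 8.97 and 6.499 FPKM in c-MYC and at 3.98, 10.2 and 3.98 FPKM in c-MYC/FOXO1AAA, and it rose in both comparisons with NL. Igf2bp3 rose in c-MYC versus NL by 6.21 (SE 0.91, limma adjusted p 0.000243) and fell in c-MYC/FOXO1AAA versus c-MYC by 3.66 (SE 0.97, limma adjusted p 0.0226). This fall was not called without c-MYC 2, c-MYC/FOXO1AAA 1 or c-MYC/FOXO1AAA 2 or with the replicate block, up to an adjusted p of 0.104 by limma. Igf2bp2 rose between the tumour groups by 6.81 (SE 0.51, limma adjusted p 2.74e-06), and it too passed the filter only through c-MYC/FOXO1AAA. For Igf1r and Igf2bp2 the adjusted p-values therefore add no support.

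Of 16 listed genes that keep imprints or read them, 11 were tested. In c-MYC versus NL 8 rose and 1 fell, in c-MYC/FOXO1AAA versus c-MYC none rose and 1 fell, and in c-MYC/FOXO1AAA versus NL 7 rose and 1 fell, with median log2 fold changes of 1.74, -0.22 and 1.12. The shares of the 11 were 72.7% and 9.09%, 0% and 9.09%, and 63.6% and 9.09%. Among all tested genes they were 24.5% and 23.6%, 15.9% and 12.7%, and 31.2% and 26.6%. Scaled to the same FPKM total, 10 rose and 0 fell, 0 and 1, and 9 and 0. All tested genes then had 50.4% and 13.5%, 18.5% and 10.6%, and 58% and 15%. The maintenance methyltransferase Dnmt1 and its partner Uhrf1 rose in c-MYC versus NL by 3.05 (SE 0.23) and 4.83 (SE 0.38), with limma adjusted p-values of 2.77e-06 and 2.97e-06. Trim28, the corepressor that imprint-binding zinc finger proteins recruit, rose by 1.74 (SE 0.12, limma adjusted p 5.25e-06). Zfp445, such a zinc finger protein, fell by 1.11 (SE 0.12, limma adjusted p 0.00184), a call that was lost under the same FPKM total, where its fall in c-MYC/FOXO1AAA versus NL turned to 0.19. Dnmt3a was the gene that fell between the tumour groups, from 31.1, 47.1 and 32.1 FPKM to 5.83, 6.40 and 6.39 FPKM (log2 fold change -2.54, SE 0.24, limma adjusted p 3.75e-05).

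Zhx2 and Zbtb20 are repressors of fetal genes in postnatal liver, and Zhx2 is known for lowering H19, Afp and Gpc3. Zhx2 stood at 3.77 to 4.85 FPKM in NL, 1.02 to 2.26 FPKM in c-MYC and 4.00 to 4.90 FPKM in c-MYC/FOXO1AAA. It fell in c-MYC versus NL by 1.56 (SE 0.25, limma adjusted p 0.00348), a call lost under the same FPKM total (adjusted p 0.547), and rose between the tumour groups by 1.66 (SE 0.27, limma adjusted p 0.00508). Zbtb20 fell in c-MYC versus NL by 5.32 (SE 0.25, limma adjusted p 4.05e-08) and rose between the tumour groups by 3.03 (SE 0.27, limma adjusted p 1.81e-05), but with a pseudocount of 1 the latter was 1.004 and was not called (limma adjusted p 0.0655). Afp stood at 1879, 2781 and 1635 FPKM in c-MYC and at 17.3, 5.56 and 112 FPKM in c-MYC/FOXO1AAA, so it was low in tumours in which H19 stayed at 6651 FPKM or more. Gpc3 rose between the tumour groups by 4.12 (SE 0.64, limma adjusted p 0.000846) and was not called in c-MYC versus NL, at -0.15 (SE 0.60, limma adjusted p 1).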

How the data were processed

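The 10 libraries were assigned to NL, c-MYC and c-MYC/FOXO1AAA by their titles. The deposited values are log2 FPKM per gene symbol. The authors counted reads per Ensembl gene, replaced the identifiers by symbols and used edgeR, as their methods state. The processing notes name GRCm38 and FastQC 0.11.7. The aligner and the counting tool are not given in the sources used here. The values carry a prior count of 2 inside the logarithm, proportional to library size, which understates the change of low genes. Of 17069 entries, 372 without a symbol or values were left out. Whole reads were recovered for 16687 genes (99.94%) and gave the depth and the ratios within libraries.

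The 10 genes and all lists were chosen with earlier results of these data known. limma 3.58.1 (R 4.3.3) fitted the log2 values of all 10 libraries, for genes that reached 1 FPKM in 3 or more libraries. The function treat, with trend and robust estimation, tested 2-sided for a change above 1.5-fold, and genes with an adjusted p under 0.05 were called. On simulated data it recovered 94 of 100 genes changed by 3 on the log2 scale and 73 of 100 changed by 2, for the contrast of the tumour groups, and called no unchanged gene of 14017. The 10 genes are named in full, as are their imprinted neighbours. Elsewhere, the 3 called genes of largest change in each direction that do not overlap between groups and reach a mean of 1 FPKM are named, with called genes of the other lists. Alternatives were pseudocounts of 0.1 and 1, other filters and scalings, no fold threshold, a fit of 2 groups, a replicate block, and leaving out each library.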

Additional observations from a re-analysis of the deposited data

Results flagged for a closer look

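In the NL group, 33 sets of values (the 10 genes and their measured imprinted neighbours) were examined for a single library far from the other three on the log2 scale, a check that chance meets in about 1 of 20 groups. Mirg in NL 3 was the 1 case, with a gap equal to the whole range (a ratio of 1.0, above Dixon's critical value for 4 samples), because NL 3 held 2 Mirg reads and the other NL libraries held 0.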

How the results depend on the processing

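The counts of other imprinted genes kept within 1.5 times of the values reported, under all alternatives run, except as follows. In c-MYC versus NL, 17 were higher and 8 lower under the same FPKM total, and 12 higher and 21 lower without a fold threshold. In c-MYC/FOXO1AAA versus c-MYC, 9 were higher with a mean FPKM of at least 5, a filter that leaves fewer genes to test. In c-MYC/FOXO1AAA versus NL, 12 were higher with that filter and 7 were lower under the same FPKM total. Leaving out 1 library at a time gave 5 to 8 higher and 11 to 16 lower in c-MYC versus NL, 9 to 16 higher and 5 lower between the tumour groups, and 14 to 21 higher and 11 to 12 lower in c-MYC/FOXO1AAA versus NL. The filter was applied again each time. Genes that reached 1 FPKM in no NL or c-MYC library were thus not tested when a c-MYC/FOXO1AAA library was left out. Under the same FPKM total, Blcap (0.075), Cd81 (0.27), H13 (0.0747) and Zfp445 (0.19) reversed to positive log2 fold changes in c-MYC/FOXO1AAA versus NL. The cause was not tested.

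The replicate numbers do not pair the samples (correlations of the deviations of same-numbered libraries from -0.04 to 0.027). A fit with the replicate block gave 5 higher and 13 lower, 15 and 5, and 19 and 11 in the 3 comparisons, in the order above. Of the 30 differences of the 10 genes, 8 moved by more than the spread between replicates under the same FPKM total, 11 with a pseudocount of 1, 4 under quantile normalization and 2 with a pseudocount of 0.1. Depth limits Peg10, Dlk1, Phlda2, Sfmbt2, Igf2, Meg3, Mest and Plagl1 in NL, each with under 10 reads in at least 1 library.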
